A study of Mus musculus with 8 samples.

Results

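Transcripts of nucleoporins and nuclear transport receptors were followed by RNA-seq in 8 mouse neuroblastomas. All 8 animals were homozygous for TH-MYCN, in which the tyrosine hydroxylase promoter drives human MYCN in the sympathoadrenal lineage. The panobinostat group (n = 4) received 2 doses of 5 mg/kg of this histone deacetylase inhibitor, 24 h apart, and the vehicle group (n = 4) received vehicle on the same schedule. Treatment began at about 6 weeks of age with tumours of 200 to 300 mm3, and tumours were taken 4 h after the second dose, with 1 RNA library per animal and stroma included. The genes were the rows of the deposited table whose GENCODE M21 symbol begins with Nup or Ipo or Tnpo and a digit, with Kpna or Kpnb, or with Xpo and a digit or t. They number 42 of the 17488 genes listed, 20 nucleoporins and 22 receptors. The rule also matched Nup62, Kpna7 and the pseudogene Kpna2-ps in the annotation, which were not analysed here.

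The nuclear pore complex is the channel through which proteins and RNA pass between nucleus and cytoplasm. Scaffold nucleoporins (the Y complex and the inner ring) hold it in the nuclear envelope, and nucleoporins rich in phenylalanine-glycine repeats fill the channel and line both faces. Receptors of the importin beta class bind these repeats and carry cargo inwards, either directly or, for classical nuclear localisation signals, through an importin alpha adaptor. Exportins carry cargo outwards together with Ran-GTP. Dividing cells duplicate their pores in each cycle, and in mouse embryonic stem cells a switch from Kpna2 to Kpna1 has been described during neural differentiation.

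Most pore and receptor genes were lower in the panobinostat tumours than in the vehicle tumours. Among the 42 genes, 28 fell and 4 rose, 10 did not pass the test, and the median log2 change was -0.59. Over all 16157 genes tested, 63.7% were called, 32.4% lower and 31.2% higher, and the median log2 change was -0.02. The membrane nucleoporin gene Nup210 fell furthest, to 0.243 times the vehicle level. The importin alpha family divided, with Kpna2 lower and both Kpna3 and Kpna4 higher in the same 4 tumours. The 2 groups did not overlap for 31 of the 42 genes, and for 59.7% of all genes tested. A call means a Benjamini-Hochberg adjusted p under 0.05 from limma, fitted and adjusted over all 16157 genes. After quantile normalization 23 genes fell and 7 rose, which moved the lower share of calls to 76.7%, against 87.5% before. Over all genes tested that share was 57.1% after quantile normalization, against 50.9% before.

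**Figure D1:**
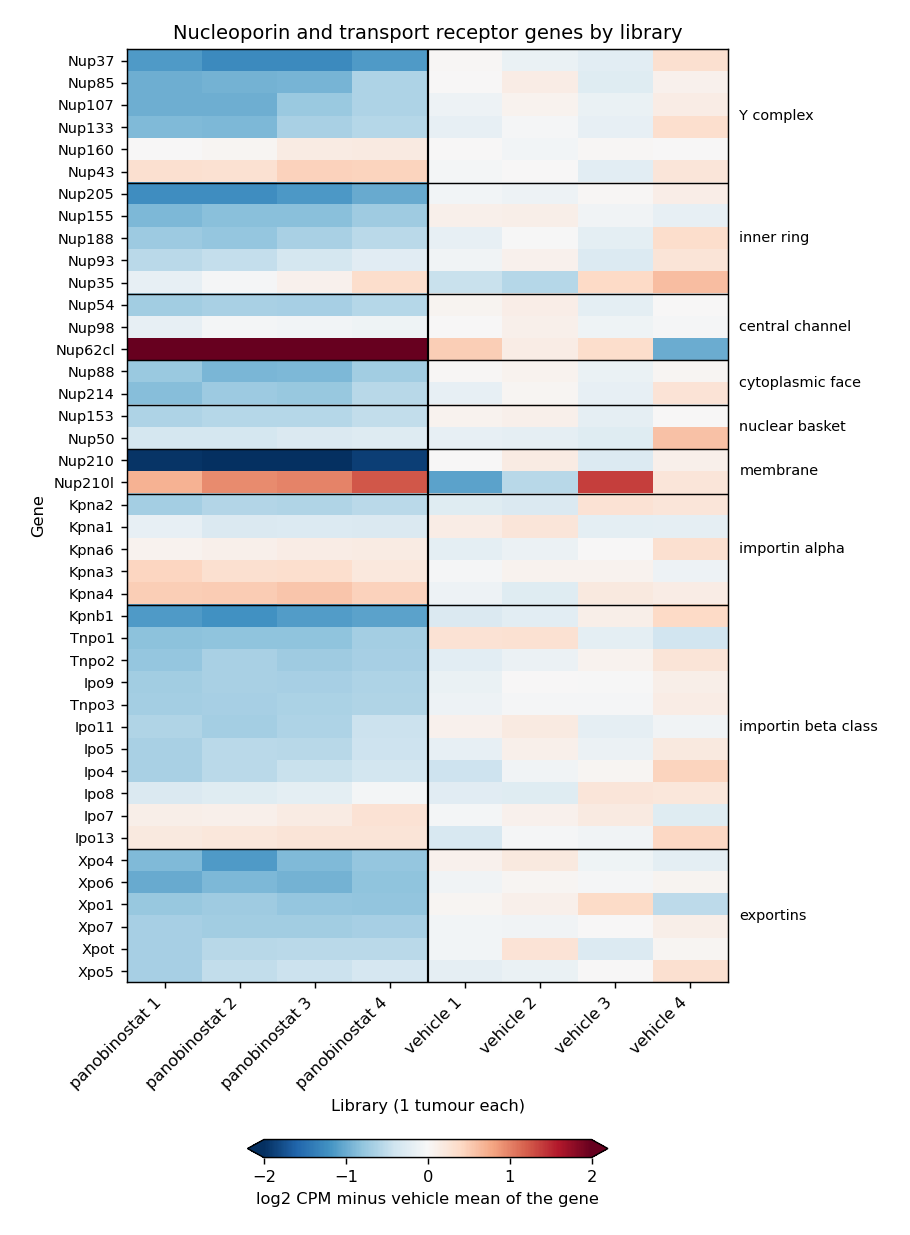
Each row is 1 gene and each column 1 tumour library, panobinostat on the left and vehicle on the right. Colour gives log2 CPM minus the gene's own vehicle mean, with the scale ending at -2 and 2. Most rows are blue in all 4 panobinostat libraries, Nup210 the darkest, while Nup62cl, Nup43, Kpna3 and Kpna4 are red there, as are the uncalled Nup210l and, faintly, Kpna6, Ipo7, Ipo13 and Nup160.

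The libraries held 18664066 to 22235545 reads with panobinostat and 22055658 to 23830026 reads with vehicle. In these bulk samples a change in cells of a type and a change in RNA per cell cannot be told apart. Most stromal and organ marker genes tested were higher with panobinostat, some organ markers in single libraries only. Macrophage markers were higher for 9 of 10 genes, summing to 3085.5 to 5518.0 CPM with panobinostat and 640.1 to 1216.6 CPM with vehicle. Fibroblast and mural markers were higher for 9 of 10, at 8446.0 to 15248.0 CPM with panobinostat and 1681.6 to 4942.6 CPM with vehicle. Schwann cell markers (6 of 6 higher) summed to 52.1 to 270.8 CPM with panobinostat and 15.8 to 48.9 CPM with vehicle. Endothelial markers (2 of 6 higher) summed to 283.1 to 443.9 and 89.1 to 443.6 CPM in that order. For T cell markers the sums were 28.8 to 51.7 and 6.0 to 30.7 CPM, again panobinostat first. Only Cd4 of these 6 could be tested. Cd4 was higher, and it had the most reads of the 6 in every library. Cd3e, Cd3d, Cd3g, Cd8a and Trac each had their largest count in vehicle library 1. Trac held 83 reads there and 13, 8 and 8 in vehicle libraries 2 to 4. Its panobinostat counts were 21, 18, 6 and 21. Whether T cell RNA was higher was not tested beyond Cd4. All 5 fat markers were higher, at 853.1 to 1167.1 CPM with panobinostat and 20.4 to 558.1 CPM with vehicle. Organ markers ranged widely between panobinostat libraries. Adrenal cortex markers (5 of 5 tested higher) summed to 39.2 to 2714.1 CPM with panobinostat and 9.0 to 11.2 CPM with vehicle, and liver markers (2 of 2 tested) to 53.1 to 7859.7 and 20.1 to 26.9 CPM. Pancreas markers (1 of 1) summed to 14.2 to 2174.1 CPM with panobinostat and 6.8 to 13.2 CPM with vehicle, and kidney markers (1 of 2) to 4.2 to 807.9 and 0.6 to 3.0 CPM. Among listed markers only Mc2r, Slc34a1 and Lep were at 0 reads in some vehicle library, and none was at 0 in all 4. Of 7 neuroblastoma markers, all detected in every library, 5 fell, and Th and Dbh made no call. Their sums were 647.9 to 715.7 CPM with panobinostat and 1135.7 to 2036.4 CPM with vehicle. The part of these cells in the values below was not tested. Panobinostat library 4 had the largest sums of adrenal cortex, liver and pancreas markers and library 3 that of kidney markers. Leaving out both, 27 of the 41 genes still tested fell (65.9%) and 2 rose (4.88%). The panobinostat libraries kept in that fit held organ reads too. Library 1 held 3829 reads of Cyp21a1 and 3372 of Hsd3b1, against 4 to 8 and 6 to 9 in vehicle libraries. Library 2 held 3449 reads of Ctrb1, against 7 to 12 with vehicle, though library 1 held 1. Over all 15387 genes then tested 26.2% fell and 21.6% rose.

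Nup210 on chromosome 6 (91013068 to 91116829, mm10, minus strand) encodes a membrane-spanning nucleoporin whose level rises when mouse myoblasts and embryonic stem cells differentiate. It stood at 5.71, 5.52, 5.50 and 5.78 log2 CPM in panobinostat tumours 1 to 4, against 7.68, 7.83, 7.39 and 7.76 log2 CPM in vehicle tumours 1 to 4. The groups were far apart, with every treated tumour below the lowest vehicle tumour by more than the range within either group. The log2 change was -2.04 (SE 0.12, adjusted p = 4.91e-06). Across 19 other settings it stayed between -2.16 and -1.87. Its paralogue Nup210l, known from mouse testis, held 68, 70, 79 and 88 reads with panobinostat and 20, 26, 111 and 47 reads with vehicle. The groups overlapped through vehicle library 3, and the difference did not pass the test (log2 change 0.97, SE 0.48, adjusted p = 0.101). Without that library (1.43) and with library weights it did.

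The promoters of 4 genes that carry the main pattern are printed to let the strongest decrease (Nup210), the main import receptor (Kpnb1) and the opposed pair of importin alpha genes (Kpna2 lower, Kpna4 higher) be set side by side. Each line gives the 250 bases before the RefSeq start (GRCm38.p6), 5′ to 3′ on the gene's strand, with capitals for the GC box GGGCGG and the CCAAT box on either strand.
Nup210: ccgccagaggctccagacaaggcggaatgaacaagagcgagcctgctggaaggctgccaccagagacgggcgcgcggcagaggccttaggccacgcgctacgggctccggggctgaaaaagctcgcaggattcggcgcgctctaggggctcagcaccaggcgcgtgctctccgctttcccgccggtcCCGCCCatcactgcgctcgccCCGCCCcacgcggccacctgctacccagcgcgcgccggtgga
Kpnb1: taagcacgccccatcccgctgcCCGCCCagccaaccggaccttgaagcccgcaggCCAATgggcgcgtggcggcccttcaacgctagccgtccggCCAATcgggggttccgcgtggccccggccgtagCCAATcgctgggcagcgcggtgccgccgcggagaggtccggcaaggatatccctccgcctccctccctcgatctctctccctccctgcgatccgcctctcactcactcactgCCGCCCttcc
Kpna2: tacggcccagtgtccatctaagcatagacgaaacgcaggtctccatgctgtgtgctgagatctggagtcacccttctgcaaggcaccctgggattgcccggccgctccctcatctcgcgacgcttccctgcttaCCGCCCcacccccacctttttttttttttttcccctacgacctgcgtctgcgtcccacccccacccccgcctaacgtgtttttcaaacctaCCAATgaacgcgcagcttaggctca
Kpna4: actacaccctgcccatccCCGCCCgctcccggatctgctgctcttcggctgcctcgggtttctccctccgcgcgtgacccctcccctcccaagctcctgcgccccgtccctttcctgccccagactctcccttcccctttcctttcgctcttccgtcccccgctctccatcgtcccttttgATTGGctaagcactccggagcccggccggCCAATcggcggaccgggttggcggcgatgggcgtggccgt
These windows are chr6:91116827-91117076, chr11:97187893-97188142, chr11:106999526-106999775 and chr3:69127093-69127342, all on the minus strand. The Nup210 window held 2 GC boxes and no CCAAT box, and the Kpnb1 window 2 GC boxes and 3 CCAAT boxes. Kpna2 and Kpna4, which moved in opposite directions, both held CCAAT boxes (1 and 2) and 1 GC box each. The E-box CACGTG, the motif bound by MYC and MAX proteins, matched none of the 4 windows. Of 33 genes with a promoter entry, 6 (18.2%) held an E-box, 16 (48.5%) a CCAAT box and 22 (66.7%) a GC box. Over all 32851 entries the shares were 6.02%, 33.8% and 32.7%, at a median GC content of 52.4%, against 64.4% for the 33. The 2 sets are not alike. The 33 hold 1 entry per gene, the nearest to the GENCODE start, while the 32851 were not reduced to 1 per gene or limited to genes tested. Both strands were searched, neighbouring matches of different motifs can share bases at their ends, and a match describes the letters of the window alone. An E-box was present in 5 of 25 promoters of genes that fell (Nup54, Nup93, Nup188, Tnpo2 and Xpot) and in 1 of 6 of genes without a call (Ipo7). Neither of the 2 promoters of genes that rose (Kpna4 and Nup62cl) held one. Kpna3 and Nup43, which also rose, were among the 9 genes without a promoter entry.

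The Y complex forms the outer rings of the pore. Its 6 genes within the symbol rule had a median log2 change of -0.79, and 4 of them fell while Nup43 rose. Nup37 stood at 4.10, 3.95, 3.95 and 4.10 log2 CPM with panobinostat, against 5.26, 5.09, 5.02 and 5.55 with vehicle. These groups did not overlap, and the log2 change was -1.20 (SE 0.14, adjusted p = 7.31e-05). Nup85, a scaffold arm subunit, stood at 6.62, 6.65, 6.66 and 6.97 log2 CPM with panobinostat, against 7.60, 7.74, 7.35 and 7.68 with vehicle (log2 change -0.87, SE 0.12). Panobinostat library 4 was the highest of its group there, still below all vehicle libraries. Nup107 and Nup133, which pair in the stem of the complex, fell by 0.82 and 0.75 on the log2 scale. Nup43, a peripheral subunit, rose, with 5.12, 5.10, 5.26 and 5.25 log2 CPM with panobinostat, against 4.76, 4.81, 4.59 and 5.04 with vehicle (log2 change 0.38, SE 0.12, adjusted p = 0.0186). The closest values, panobinostat library 2 and vehicle library 4, differed little, and the call was lost without panobinostat library 3 (0.36), without library 4 (0.36), without both (0.31) and with median centring (0.27). Over all settings but the test against a 1.5-fold change, adjusted p ran from 0.0023 to 0.185 for Nup43. Nup160, the last of these 6 genes, changed by 0.10 (SE 0.08), with a sign that flipped under median centring (-0.018) and a call with scaling to read totals (0.22).

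Inner ring genes fell in 4 of 5 cases. Nup205, one of a pair of large ring scaffolds, stood at 6.71, 6.71, 6.80 and 6.94 log2 CPM with panobinostat, against 7.89, 7.84, 7.96 and 8.08 with vehicle. The groups lay apart by more than the range of either, and the level was 0.449 times that of vehicle (log2 change -1.16, SE 0.09, adjusted p = 1.21e-05). Nup188, the other large scaffold, fell by 0.67 on the log2 scale. Nup155, which links the ring to the membrane, stood at 6.42, 6.49, 6.49 and 6.61 log2 CPM with panobinostat, against 7.43, 7.44, 7.25 and 7.17 with vehicle (log2 change -0.82, SE 0.09). No treated value reached the vehicle range. Nup93, the linker of the ring, fell by 0.40 (SE 0.13, adjusted p = 0.0205) with overlapping groups, and its call was lost without panobinostat library 1 or 2 or vehicle library 2 and after quantile normalization (adjusted p from 0.00357 to 0.116 over the same settings as for Nup43). Nup35 changed by 0.06 (SE 0.28), in a vehicle group that itself ran from 3.74 to 4.93 log2 CPM, and its sign flipped in 6 settings.

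Among genes of the repeat proteins in the central channel, Nup54 fell, with 5.50, 5.54, 5.52 and 5.62 log2 CPM with panobinostat, against 6.24, 6.32, 5.99 and 6.19 with vehicle (log2 change -0.64, SE 0.10). These groups did not overlap. Nup98, whose gene encodes both the repeat protein Nup98 and the Y complex subunit Nup96, changed by -0.09 (SE 0.08), above 0 with scaling to read totals (0.033) and called lower with median centring (-0.20). Nup62cl, an X-linked gene related to the C-terminal part of Nup62, held 51, 38, 65 and 65 reads with panobinostat and 10, 7, 9 and 3 reads with vehicle. All treated counts were above all vehicle counts, though the gene was scarce in both. It passed the filter on low values only through the panobinostat libraries, so its difference (log2 change 3.00, SE 0.39, adjusted p = 0.000144) was bound to be a higher one. Without it 28 of 41 genes fell and 3 rose.

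On the cytoplasmic face both genes within the symbol rule fell. Nup88 stood at 6.75, 6.59, 6.61 and 6.81 log2 CPM with panobinostat, against 7.52, 7.56, 7.37 and 7.55 with vehicle (log2 change -0.81, SE 0.09). Its binding partner Nup214, which carries repeats bound by Xpo1, stood at 6.01, 6.15, 6.11 and 6.32 log2 CPM with panobinostat, against 6.71, 6.91, 6.71 and 7.14 with vehicle (log2 change -0.72, SE 0.12). Neither pair of groups overlapped. Of the 2 nuclear basket genes within the rule Nup153 fell, with 7.08, 7.12, 7.13 and 7.20 log2 CPM with panobinostat, against 7.77, 7.80, 7.51 and 7.70 with vehicle (log2 change -0.56, SE 0.09). Nup50, which binds importin alpha and aids cargo release, stood at 6.33, 6.33, 6.40 and 6.43 log2 CPM with panobinostat, against 6.52, 6.50, 6.44 and 7.26 with vehicle. The groups did not overlap, but vehicle library 4 stood above the rest of its group and the difference did not pass the test (log2 change -0.31, SE 0.17, adjusted p = 0.144). Without that library the change was -0.12, and with median centring (-0.43) the test was passed.

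**Figure D2:**
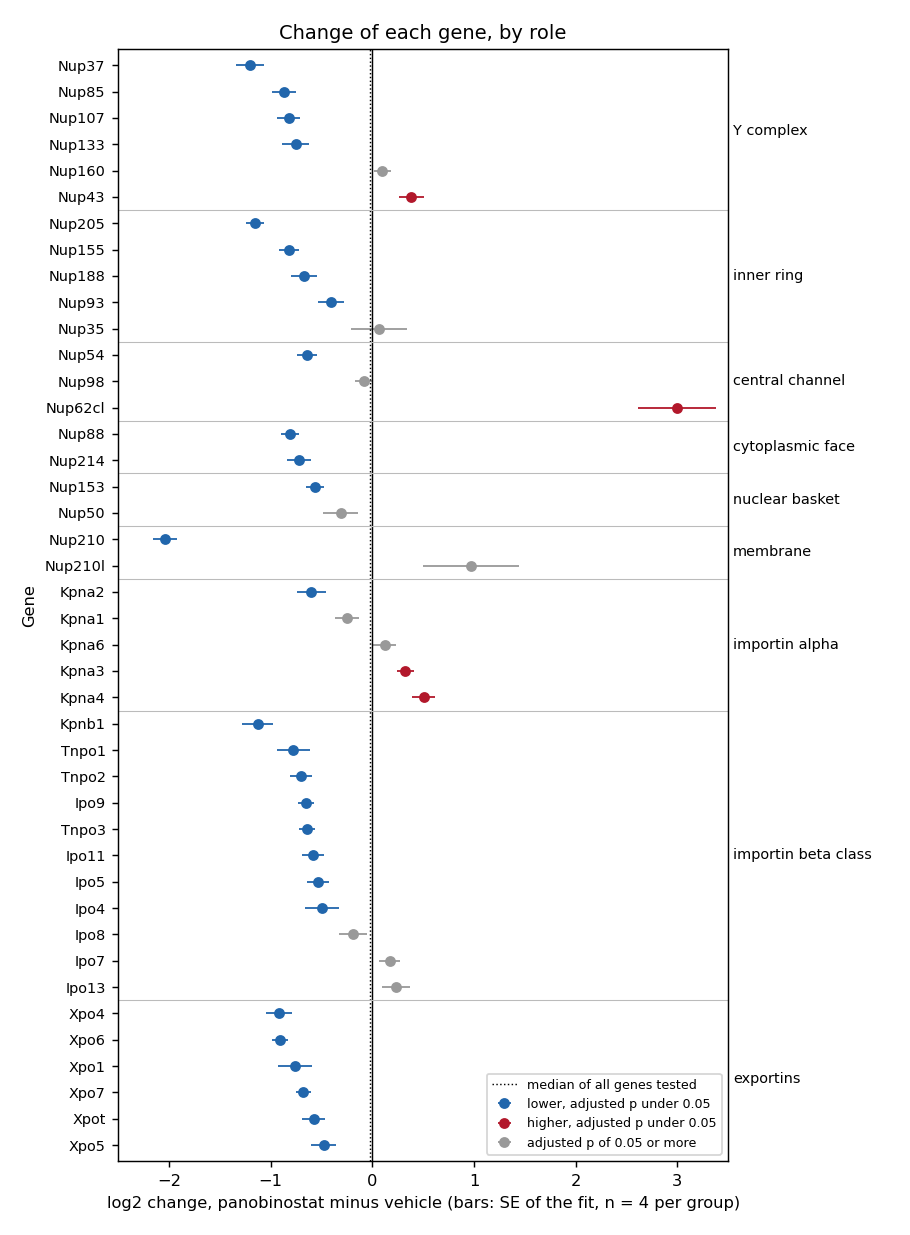
Points give the log2 change of each gene, panobinostat minus vehicle, and bars the SE of the fit with 4 tumours per group, grouped by role. All 6 exportin genes and 8 of 11 importin beta class genes lie below 0 and passed the test, whereas the 5 importin alpha genes spread from -0.60 to 0.50.

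The importin alpha adaptors link classical nuclear localisation signals to Kpnb1. Kpna2, on chromosome 11 (106988629 to 106999541), stood at 7.00, 7.09, 7.07 and 7.13 log2 CPM with panobinostat, against 7.43, 7.38, 7.96 and 7.92 with vehicle. The treated values lay close together and below all vehicle values, of which those of libraries 3 and 4 were the higher. The log2 change was -0.60 (SE 0.14, adjusted p = 0.00519), and reads of the processed pseudogene Kpna2-ps could be shared with it. Kpna4, on chromosome 3 (69067149 to 69127113), stood at 7.16, 7.16, 7.22 and 7.12 log2 CPM with panobinostat, against 6.56, 6.41, 6.86 and 6.80 with vehicle. Here every treated value was above every vehicle value, with a log2 change of 0.50 (SE 0.11, adjusted p = 0.00311). Kpna3, closest to Kpna4 within the family, stood at 7.11, 7.01, 7.01 and 6.90 log2 CPM with panobinostat, against 6.65, 6.74, 6.75 and 6.57 with vehicle. Its groups did not overlap either (log2 change 0.33, SE 0.08, adjusted p = 0.00759), and the call was lost with median centring (0.21, adjusted p from 0.000633 to 0.0679 over settings, leaving aside the test against a 1.5-fold change). Kpna1 changed by -0.25 (SE 0.12, adjusted p = 0.0884) and Kpna6 by 0.12 (SE 0.12, adjusted p = 0.386). Kpna1 was called lower without vehicle library 3 or 4, with library weights and with median centring. Kpna6 was called higher without vehicle library 4, with library weights and after quantile normalization.

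The make-up of the importin alpha pool was compared within each library, where scaling between libraries plays no part. There were 0.897, 0.950, 0.903 and 1.009 Kpna2 reads per Kpna4 read in panobinostat tumours 1 to 4, against 1.824, 1.955, 2.141 and 2.173 in vehicle tumours 1 to 4. The ratio restates the opposite calls of the pair in 1 number. With reads divided by exon length, Kpna2 made up 38.9% ± 1.49 of the summed importin alpha level with panobinostat and 52.9% ± 4.60 with vehicle (SD, n = 4 each). Kpna4 made up 13.3% ± 0.317 with panobinostat and 8.40% ± 0.380 with vehicle, and Kpna3 24.9% ± 1.49 and 17.9% ± 2.69. By coding length in place of exon length the Kpna2 share was 22.3% ± 0.995 with panobinostat and 33.5% ± 4.03 with vehicle, so the level of each share depends on the length used while the order of the groups was the same. The summed level of the 5 genes was 120.0 to 121.3 RPKM with panobinostat and 120.4 to 151.1 RPKM with vehicle. RPKM are reads per kb of exon, scaled to the library size behind the deposited values. Vehicle libraries 1 and 2 were at the treated level in this sum, and vehicle libraries 3 and 4 above it.

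**Figure D3:**
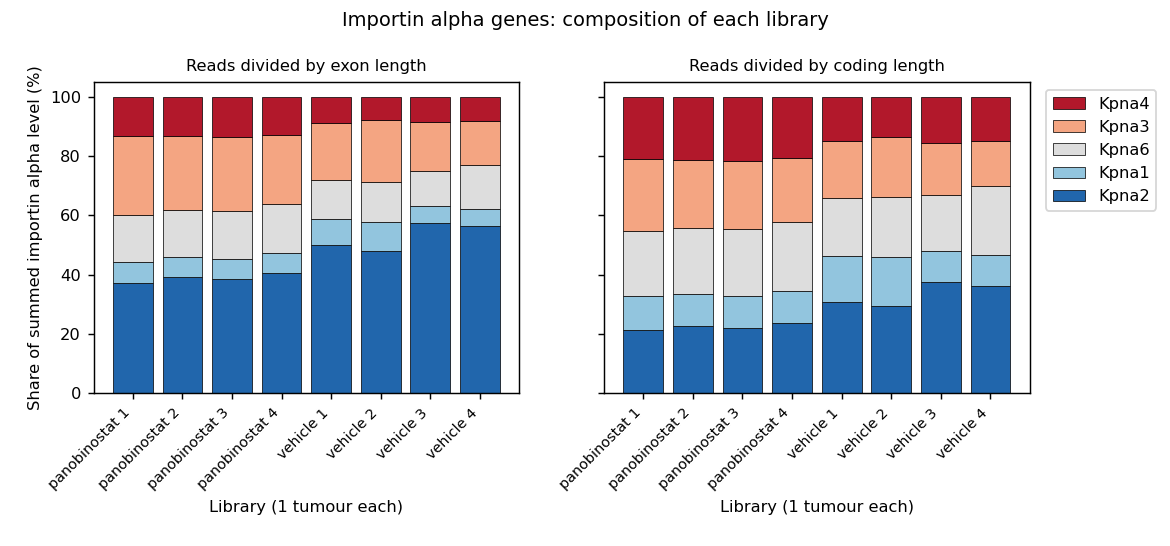
Bars give, for each tumour library, the share in percent of each importin alpha gene in their summed level, with reads divided by exon length (left) or coding length (right). Kpna2 takes a smaller share and Kpna4 a larger share in each of the 4 panobinostat libraries than in any vehicle library, under both lengths.

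Among the 11 receptors of the importin beta class 8 fell and none rose (median log2 change -0.58). Kpnb1, importin beta itself, on chromosome 11 (97159714 to 97187881), stood at 8.35, 8.26, 8.35 and 8.41 log2 CPM with panobinostat, against 9.17, 9.25, 9.58 and 9.88 with vehicle. All treated tumours were well below all vehicle tumours, at 0.457 times the level (log2 change -1.13, SE 0.15, adjusted p = 0.000184). Set against the summed importin alpha level per length, Kpnb1 stood at 0.387 to 0.429 with panobinostat and 0.728 to 0.952 with vehicle. The receptor transcript was lower relative to its adaptors in each treated tumour than in any vehicle tumour. Ipo9, a carrier of histones H2A and H2B, stood at 7.50, 7.55, 7.53 and 7.58 log2 CPM with panobinostat, against 8.07, 8.20, 8.20 and 8.32 with vehicle (log2 change -0.65, SE 0.08). Tnpo3, which imports serine and arginine rich splicing factors, stood at 6.94, 6.94, 6.99 and 7.02 log2 CPM with panobinostat, against 7.52, 7.59, 7.59 and 7.77 with vehicle (log2 change -0.64, SE 0.08). For both genes the groups lay clear of each other. Tnpo1, an import receptor of RNA-binding proteins, and its paralogue Tnpo2 fell by 0.78 and 0.70, Ipo11 by 0.58, Ipo5, a carrier of ribosomal proteins, by 0.54 and Ipo4, a carrier of histones H3 and H4, by 0.50 on the log2 scale. The calls of Tnpo1 and Ipo5 were lost after quantile normalization. The call of Ipo4 was lost on leaving out panobinostat library 1, panobinostat library 2, vehicle library 3 or both panobinostat libraries 3 and 4, and with scaling to read totals or quantile normalization (adjusted p from 0.00356 to 0.129, leaving aside the test against a 1.5-fold change). Without those libraries the Ipo4 log2 change was -0.45, -0.48, -0.48 and -0.59. Of its exon bases 55.3% are shared with the annotated gene Gm49378 on the same strand. Ipo7 (0.17, SE 0.11), which imports ribosomal proteins and, with Kpnb1, linker histone H1, Ipo8 (-0.19, SE 0.14), a receptor of Argonaute and Smad proteins, and Ipo13 (0.23, SE 0.14), which carries cargo both ways, made no call. Without vehicle library 4 the Ipo7 log2 change was 0.09. The Ipo8 log2 change was -0.12 without vehicle library 4 and -0.11 without vehicle library 3. Ipo7 was called higher after quantile normalization (0.47). Ipo13 was called higher without vehicle library 4 (0.37), and with scaling to read totals, quantile normalization or library weights.

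All 6 exportin genes fell, with non-overlapping groups and log2 changes from -0.92 to -0.48. Xpo6, the exporter of actin with profilin, stood at 6.96, 7.05, 7.02 and 7.15 log2 CPM with panobinostat, against 7.88, 8.00, 7.94 and 8.01 with vehicle. The gap between the groups was larger than the range within each (log2 change -0.91, SE 0.08, adjusted p = 1.80e-05). Xpo7 stood at 6.83, 6.79, 6.78 and 6.83 log2 CPM with panobinostat, against 7.44, 7.41, 7.50 and 7.60 with vehicle (log2 change -0.68, SE 0.08). Xpo1, the receptor of leucine-rich export signals, on chromosome 11 (23256041 to 23298249), stood at 7.77, 7.83, 7.76 and 7.74 log2 CPM with panobinostat, against 8.58, 8.64, 8.91 and 8.01 with vehicle. Vehicle library 4 was the nearest to the treated tumours and vehicle library 3 the farthest. The log2 change was -0.76 (SE 0.17, adjusted p = 0.00343), or -0.93 without vehicle library 4, and the call was lost after quantile normalization (-0.44, adjusted p from 3.36e-05 to 0.067 over settings, leaving aside the test against a 1.5-fold change). Xpo4, an exporter of the translation factor eIF5A, fell by 0.92, Xpot, the tRNA exporter, by 0.58 and Xpo5, the exporter of microRNA precursors, by 0.48 on the log2 scale.

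Levels of different genes were compared per exon length. Kpnb1 was at 49.2 ± 1.99 RPKM with panobinostat and 109.8 ± 25.2 RPKM with vehicle, the highest vehicle mean of the 42. Ipo5 was at 50.6 ± 3.34 RPKM with panobinostat and 73.7 ± 8.79 RPKM with vehicle, and Kpna2 at 46.8 ± 1.76 and 72.2 ± 15.4 RPKM (SD, n = 4 each). Kpnb1 and Ipo5 differed by less than their SD with panobinostat, as Ipo5 and Kpna2 did with vehicle. Nup85 followed, at 31.4 ± 3.77 RPKM with panobinostat and 57.3 ± 6.60 RPKM with vehicle, ahead of Xpo1 at 30.5 ± 0.756 and 52.9 ± 12.9 RPKM, a difference smaller than the SD of Nup85 in either group. Nup210 took place 37 in the order with panobinostat (4.73 ± 0.459 RPKM) and place 22 with vehicle (19.5 ± 2.51 RPKM). Kpna3 took place 6 with panobinostat (29.9 RPKM) and place 16 with vehicle (23.9 RPKM). The lowest levels were those of Nup62cl and Nup210l, under 2 RPKM in each library. A long annotated untranslated region lowers a value per exon length, so the order holds for this annotation.

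**Figure D4:**
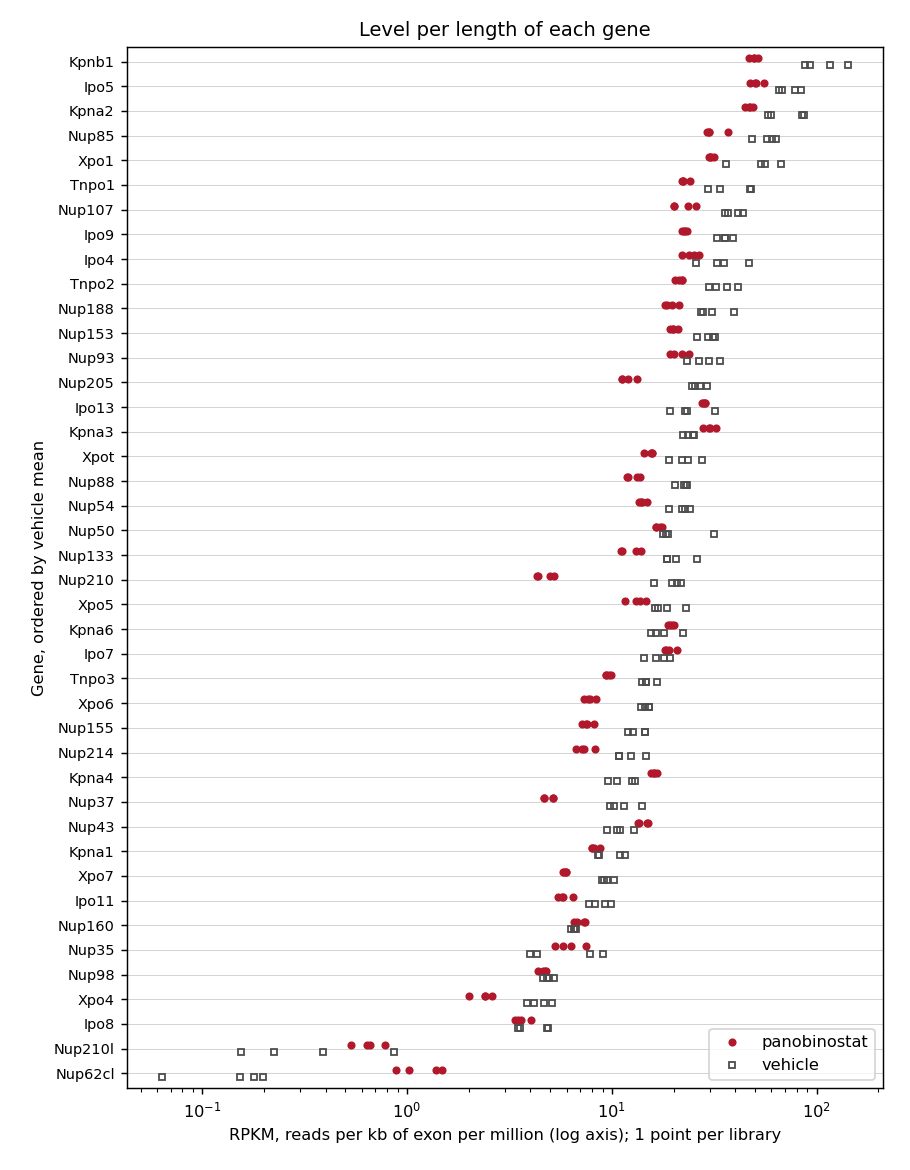
Points give the level of each gene per library in RPKM on a log axis, filled circles for the 4 panobinostat and open squares for the 4 vehicle tumours, ordered by the vehicle mean. Nup210 lies far to the left of its vehicle values, and the panobinostat points of most genes lie closer together than the vehicle points.

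For most genes treated tumours differed less from each other than vehicle tumours did. The SD of log2 CPM was larger with vehicle for 36 of the 42 genes (85.7%), and the median SD was 0.086 with panobinostat and 0.208 with vehicle. Over all genes tested the SD was larger with vehicle for 81.6%, with median SDs of 0.156 and 0.296, so the genes of the pore followed the libraries as a whole in this. Organ markers went the other way. Every tested adrenal cortex, liver, pancreas and kidney marker had its larger SD with panobinostat. The median SD of adrenal cortex markers was 2.896 with panobinostat and 0.425 with vehicle.

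Genes of the same machinery outside the symbol rule mostly moved the same way. Among 12 further pore genes 8 fell and none rose by limma, at an unadjusted p under 0.05 either (0 genes), and the median log2 change was -0.40. Seh1l, a Y complex subunit, fell by 1.59 (SE 0.09), the membrane nucleoporin gene Pom121 by 1.25 (SE 0.11) and Ndc1, the other membrane anchor, by 0.92 (SE 0.10) on the log2 scale. Ranbp2 of the cytoplasmic filaments (0.36, SE 0.20) and Nupl1 of the central channel (0.11, SE 0.10) lay above 0 without passing the test. Tpr of the nuclear basket (-0.08, SE 0.17) did not pass it either. Of 8 tested genes of the Ran cycle 7 fell and 1 rose (median -0.85). Over all genes tested 32.4% fell and 31.2% rose. Outside the test against a 1.5-fold change, 6 or 7 Ran cycle genes and 6 to 10 of the further pore genes fell, depending on the setting. Rcc1, the nucleotide exchange factor that makes Ran-GTP in the nucleus, fell by 1.36 on the log2 scale (SE 0.12). Ranbp3, a cofactor of Xpo1, fell by 1.08 (SE 0.11), Ranbp1, which aids GTP hydrolysis by Ran, fell by 0.93 (SE 0.10) and Ran itself fell by 1.01 (SE 0.12). Snupn, the import adaptor of spliceosomal ribonucleoproteins, moved the other way, with 3.86, 4.08, 4.12 and 3.96 log2 CPM with panobinostat, against 2.74, 2.75, 3.26 and 3.45 with vehicle (log2 change 0.95, SE 0.19). Of 18 mRNA export genes 12 fell and 2 rose (median -0.67). Mcm3ap, which encodes the scaffold protein GANP, fell by 2.26 (SE 0.14), the adaptor gene Alyref fell by 1.53 (SE 0.09) and the helicase gene Ddx39b fell by 1.30 (SE 0.10). Nxf1, the bulk mRNA export receptor (0.35, SE 0.10), and Zc3h3 (0.67, SE 0.15) rose. Neither passed the test on leaving out panobinostat libraries 3 and 4, where their log2 changes were 0.32 and 0.60. With median centring Nxf1 did not pass it (0.23, adjusted p = 0.0779 by limma), while Zc3h3 did (0.55). Nxt2 (0.33, SE 0.17) and Thoc2 (0.25, SE 0.29) lay above 0 without passing the test. In the same libraries every one of 14 genes on a proliferation list fell (median log2 change -1.43). Their part in the values above was not tested.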

How the data were processed

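Whole-tumour RNA of 4 panobinostat and 4 vehicle animals was sequenced, 1 library per animal, with TruSeq libraries per the labels' protocols. The submitters' processing notes list CASAVA 1.8.2, TopHat2, HTSeq, limma and mm10, and the sources used here do not give annotation, filters or strand of counting. The values as deposited by the authors are log2 CPM (reads scaled to a library size) with 0.5 read added to each count. This is the form written by voom, as read from the values, since no header states it. Undoing it gave whole reads for all values (tolerance 0.001 reads), and 1 CPM was 19.3 to 22.64 reads. The library size behind the deposited values was not the read total. It was 1.0038 to 1.034 times that total with panobinostat and 0.8883 to 0.9766 times with vehicle. RPKM were scaled to the same sizes. Symbols, positions and lengths were taken from GENCODE M21 (17228 IDs matched, 260 did not), and promoters from RefSeq.

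Genes at 1 CPM or more in at least 4 libraries (16157, with 1331 left out) went into 1 linear model (limma 3.58.1, R 4.3.3, variance trend, two-sided), and p-values were adjusted over all of them by Benjamini-Hochberg, with a threshold of 0.05. The members and lists were chosen with earlier results of these data known. Per library values were printed for the 2 genes of each role with the smallest adjusted p, every gene that rose, and Kpna2, Kpnb1 and Xpo1. From the related lists the 3 genes with the smallest adjusted p were named. Those whose change had the opposite sign to most of their list were named too, with Ran and Tpr in addition. Alternatives were other filters, scalings, variance settings, weights and a pseudocount, a test against a 1.5-fold change, and leaving out libraries.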

Additional observations from a re-analysis of the deposited data

Results flagged for a closer look

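In 4 of 84 groups of 4 libraries 1 library stood far from the others by Dixon's test. Chance alone gives about 1 such group in 20. Nup50 stood at 7.264 log2 CPM in vehicle library 4, the highest of its group. Highest of the panobinostat group were Nup85 at 6.971 and Tnpo1 at 8.078 log2 CPM in library 4, and Kpna1 at 6.219 log2 CPM in library 1.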

How the results depend on the processing

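No paired analysis was possible because each library came from a different animal and the labels pair no animals between groups. Among the 42 genes, 7 fell and 1 rose in a test against a 1.5-fold change, against 28 and 4. The 7 are 16.7% of the genes, near the 13.5% of all genes lower in that test. With library weights 7 rose (16.7%), after quantile normalization 7 (16.7%), with median centring 2 (4.76%) and without panobinostat libraries 3 and 4 also 2 (4.88%). Over all genes tested the shares that rose were 34.8%, 28.4%, 27.9% and 21.6% in that order, against 31.2% before. Leaving out 1 library at a time, 2 to 6 rose (4.88% to 14.3%) and 26 to 29 fell (63.4% to 69.0%). Over all genes tested 26.4% to 31.9% then rose and 29.9% to 32.9% fell. Against a 1.5-fold change 5 other pore genes, 4 Ran cycle genes and 4 mRNA export genes fell, and by limma 0 Ran cycle genes (1 at an unadjusted p under 0.05) and 0 mRNA export genes (0) rose. Of other pore genes 2 rose after quantile normalization and 1 with read totals. Of mRNA export genes 1 (Zc3h3) rose with median centring and 0 without panobinostat libraries 3 and 4 (1 at an unadjusted p under 0.05). Over all genes 2802 rose and 2186 fell against a 1.5-fold change, and 3328 rose without panobinostat libraries 3 and 4. Signs reversed for Nup160 (-0.018, median centring), Nup98 (0.033, read totals) and Nup35. The Nup35 log2 change was -0.123 with quantile normalization, -0.053 with median centring, -0.092 without panobinostat libraries 3 and 4 and -0.127 to 0.27 leaving out 1 library. The cause was not tested. Outside the 1.5-fold test, 24 of the 32 called genes stayed called in every setting. Quantile normalization moved the median of the 42 genes relative to all genes to -0.21, against -0.57. The median of all genes was -0.14 after quantile normalization or median centring and 0.097 with read totals, against -0.022. Shares by coding length, chosen after seeing the data, were Kpna2 22.3% with panobinostat and 33.5% with vehicle, and Kpna4 21.3% and 14.8%. Nup62cl could not be tested without any 1 panobinostat library or with a filter of 5 CPM. Depth limits Nup62cl and Nup210l, which hold few reads.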

Other observations

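Across the 42 genes the log2 change had a Spearman correlation of -0.379 with the vehicle level, and -0.281 over the 40 genes left without Nup62cl and Nup210l. The genes share libraries and the vehicle values enter both measures, so this is a description only.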
